A study of Gallus gallus with 12 samples.

Results

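Co-chaperones, chaperonins and folding enzymes were followed in the chicken hypothalamus during heat stress and recovery. The members were all genes on the array whose symbol names a J-domain protein (DNAJ), a BAG exchange factor, a chaperonin subunit (CCT, TCP1, HSPD1, HSPE1), a small heat shock protein (HSPB, CRYAB), a prolyl isomerase (FKBP, PPI), a protein disulfide isomerase (PDIA) or calreticulin. They came to 44 of the 4814 genes that could be named on the array, measured by 101 probes. Of the 102 chicken reference symbols that fit these prefixes and names, 58 had no named probe, DNAJB1, BAG3, CCT3, HSPB8 and CALR among them, so these were not analysed here. The 58 also hold PPIP5K1, PPIP5K2, HSPBAP1 and HSPB11, which fit by prefix though their proteins are not folding factors.

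Co-chaperones decide which proteins the heat shock protein HSP70 takes up and when it lets them go. J-domain proteins hand clients to HSP70 and start its ATPase cycle, and BAG proteins help it release nucleotide. Chaperonins are barrels in which proteins such as actin and tubulin fold, small heat shock proteins hold unfolded proteins until an HSP70 can take them, prolyl isomerases turn peptide bonds before proline, and disulfide isomerases form and shuffle disulfide bonds in the endoplasmic reticulum (ER). In many animal cells heat raises the transcription of several of these genes through heat shock factors.

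The birds were 56-day-old female broilers of a full- or half-sib family, reared at 25 °C, with 4 birds in each of 3 groups and 1 one-colour array per bird. HS birds spent 24 h at 34 °C, TR birds had the same heat followed by 24 h of recovery at 25 °C, and CL birds stayed at 25 °C. HS vs. CL asked what heat did, HS vs. TR what differed between heat and recovery, and TR vs. CL what still differed after recovery. The 3 comparisons share groups and are not independent of each other. All 12 titles name the hypothalamus, whereas all 12 tissue fields read spleen and all 12 gender fields read male.

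Each array had 33505 to 36852 spots above background, the median signal over background was 15.6 to 17.3 in HS, 13.6 to 16.1 in TR and 11.8 to 13.7 in CL, and no spot was saturated. The birds of each group were hybridised on a slide of their own, and CL was scanned on another day than HS and TR, so slide and group cannot be told apart. Oligodendrocyte markers were bright on every array (summed log2 signal 19.21 to 19.43 in HS, 19.38 to 19.44 in TR and 19.33 to 19.45 in CL). Of 15 hypothalamic markers 8 had a named probe and 7 of these were above background on at least 1 array, whereas CRH was on none. Their summed log2 signal was 16.42 to 18.73 in HS, 11.62 to 16.99 in TR and 9.03 to 17.69 in CL, and that of the neuropeptide gene AVP alone 16.38 to 18.71 in HS, 10.96 to 16.97 in TR and 7.69 to 17.68 in CL. Of 19 striated muscle markers 12 had a named probe, with summed log2 signals of 13.98 to 16.45 in HS, 13.87 to 14.51 in TR and 14.25 to 17.90 in CL, highest in CL2 and HS2. All 6 lymphoid markers were named and summed to 18.08 to 18.17 in HS, 18.18 to 18.32 in TR and 18.22 to 18.39 in CL, nearly all of it from CD74. The part of these differences in the results was not tested, and in whole tissue fewer cells of a type and less RNA per cell cannot be told apart.

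By their brightest probes, none of the 43 members tested was differentially expressed (DE) in any comparison. DE meant a limma p under 0.05, a false discovery rate (FDR, Benjamini-Hochberg over all probes tested) under 0.15 and a fold change over 1.5. Of all probes 3.57% were DE for HS against CL, 1.85% for HS against TR and 0.0945% for TR against CL. Among all named genes the share was 2.82%, 1.84% and 0.163% in the same order. An unadjusted p under 0.05 was reached by 7 members for HS against CL (20.6% of all probes), by 2 for HS against TR (16.4%) and by 2 for TR against CL (7.77%). With the methods' t-test these counts were 8, 3 and 4, and none was DE. Among the alternatives the first count ranged over 5 to 12 members. Shares of all probes at an unadjusted p under 0.05 were counted in the main fit only.

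Of the 7 members with a low p in HS vs. CL, 6 were higher in HS (DNAJA4, DNAJB12, DNAJB14, DNAJC6, FKBP5 and HSPB9; 7.98% of all probes) and 1 was lower (PPIA; 12.6%). This balance depended on the processing, with 5 higher and 6 lower under 75th percentile scaling. Of the 7, DNAJA4, DNAJB14, DNAJC6 and FKBP5 also had an FDR under 0.15, which 11.1% of all probes had, and missed only the fold limit. With 1 array left out, the FDR of DNAJC6 was under 0.15 in 2 of 12 fits, that of DNAJA4 in 8 and those of DNAJB14 and FKBP5 in 11. No member had an FDR under 0.15 for HS against TR (4.62% of all probes) or for TR against CL (0.152%). At the brightest probes the largest fold was 1.43 for FKBP5 (HS over CL), 1.41 for HSPB9 (HS over TR) and 1.35 for DNAJC6 (TR over CL). A dimmer FKBP5 probe changed more, by 1.04 on the log2 scale for HS against CL and 0.70 for TR against CL.

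The members' changes were small. The median over members was -0.05 on the log2 scale for HS against CL, -0.02 for HS against TR and -0.01 for TR against CL, beside -0.04, -0.04 and -0.0044 over all probes. The median size of the change, sign aside, was 0.16, 0.09 and 0.06 for members and 0.17, 0.15 and 0.12 for all probes in that order. For all named genes by their brightest probes it was 0.15, 0.14 and 0.10. All probes include dimmer ones, with a median log2 signal of 9.71 against 13.06 for members and 11.38 for named genes (HS vs. CL). Above 0 were 19 members for HS against CL (43.6% of all probes), 20 for HS against TR (42.4%) and 18 for TR against CL (49%). Among named genes 48.8%, 47.8% and 49% were above 0 in that order.

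**Figure D1:**
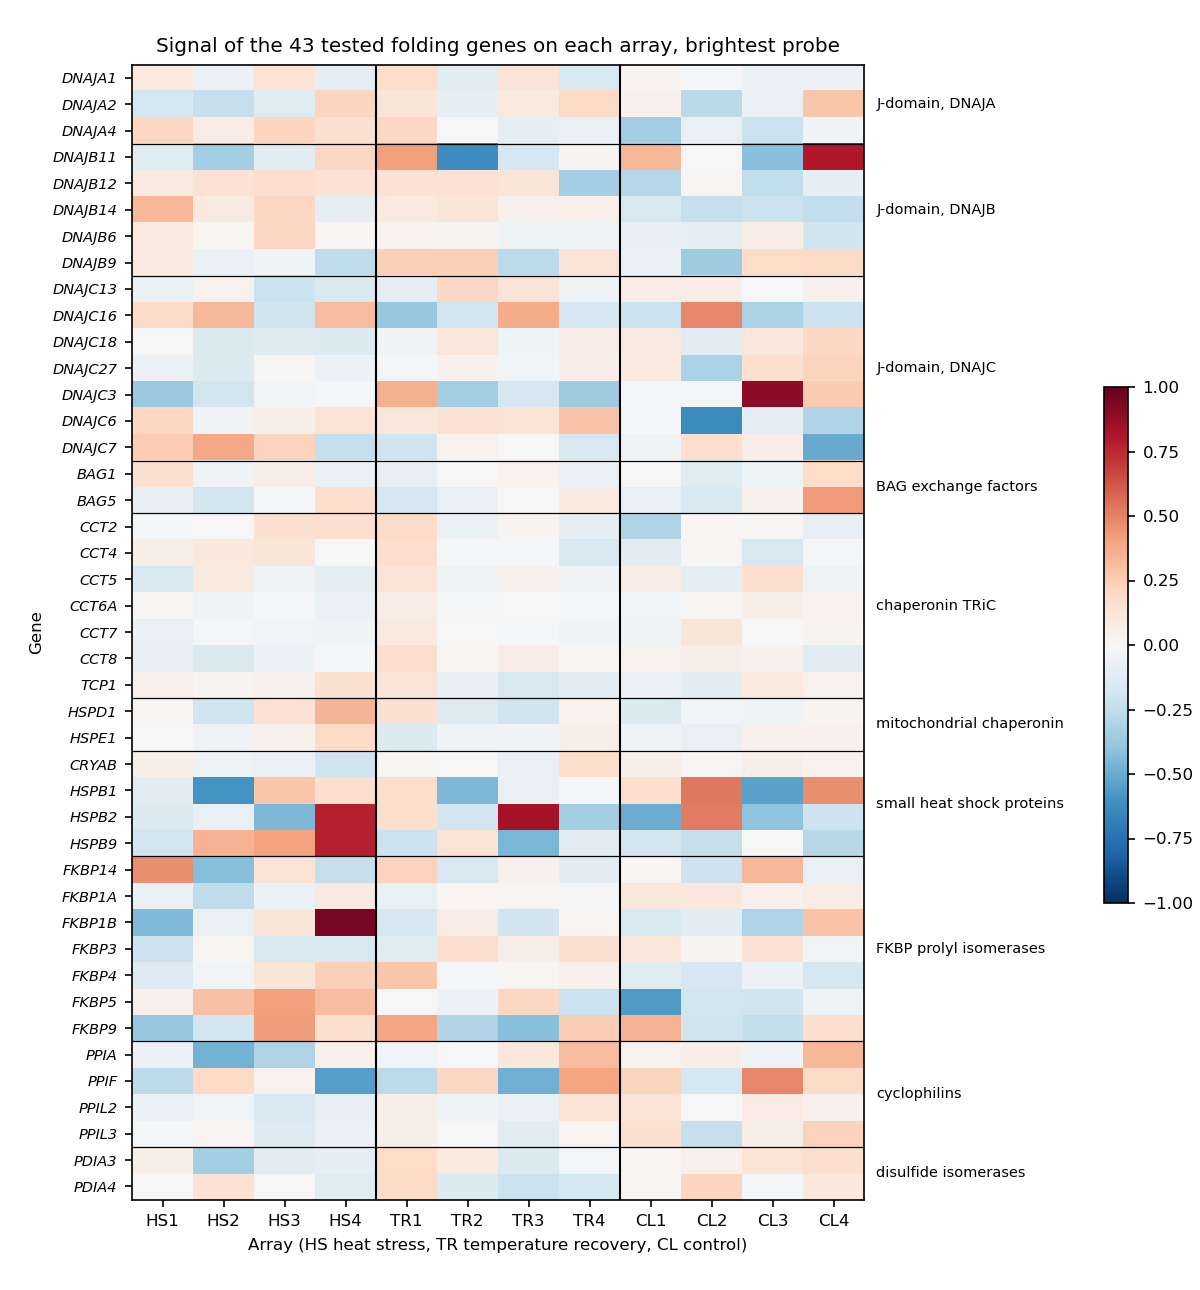
Each row is 1 of the 43 tested members, ordered by role, and each column 1 array (HS, then TR, then CL); colour gives the log2 signal minus the member's mean over the 12 arrays. No role is warm or cool throughout a group, and FKBP5, DNAJB14 and DNAJA4 are warmer in HS than in CL.

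At the brightest probes, 95% intervals from the spread between birds bounded the group difference for most members. They do not cover differences between slides or between probes of a gene. The 95% interval of the change stayed inside 1.5-fold in both directions for 31 of 43 members between HS and CL (59.6% of all probes), for 36 between HS and TR (63.1%) and for 37 between TR and CL (67.5%). Among named genes by their brightest probes the shares were 66%, 69.1% and 72.9%. The median standard error of a member's log2 change was 0.10, against 0.14 over all probes and 0.13 over named genes. In HS vs. CL the 12 members whose interval reached 1.5-fold were DNAJB11, DNAJC3, DNAJC6, DNAJC7, DNAJC16, FKBP1B, FKBP5, HSPB1, HSPB2, HSPB9, PPIA and PPIF, and for these a change of that size was not excluded. Over all 12 arrays a member's log2 signal spanned a median of 0.525, and less than 1 for 36 of 43.

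**Figure D2:**
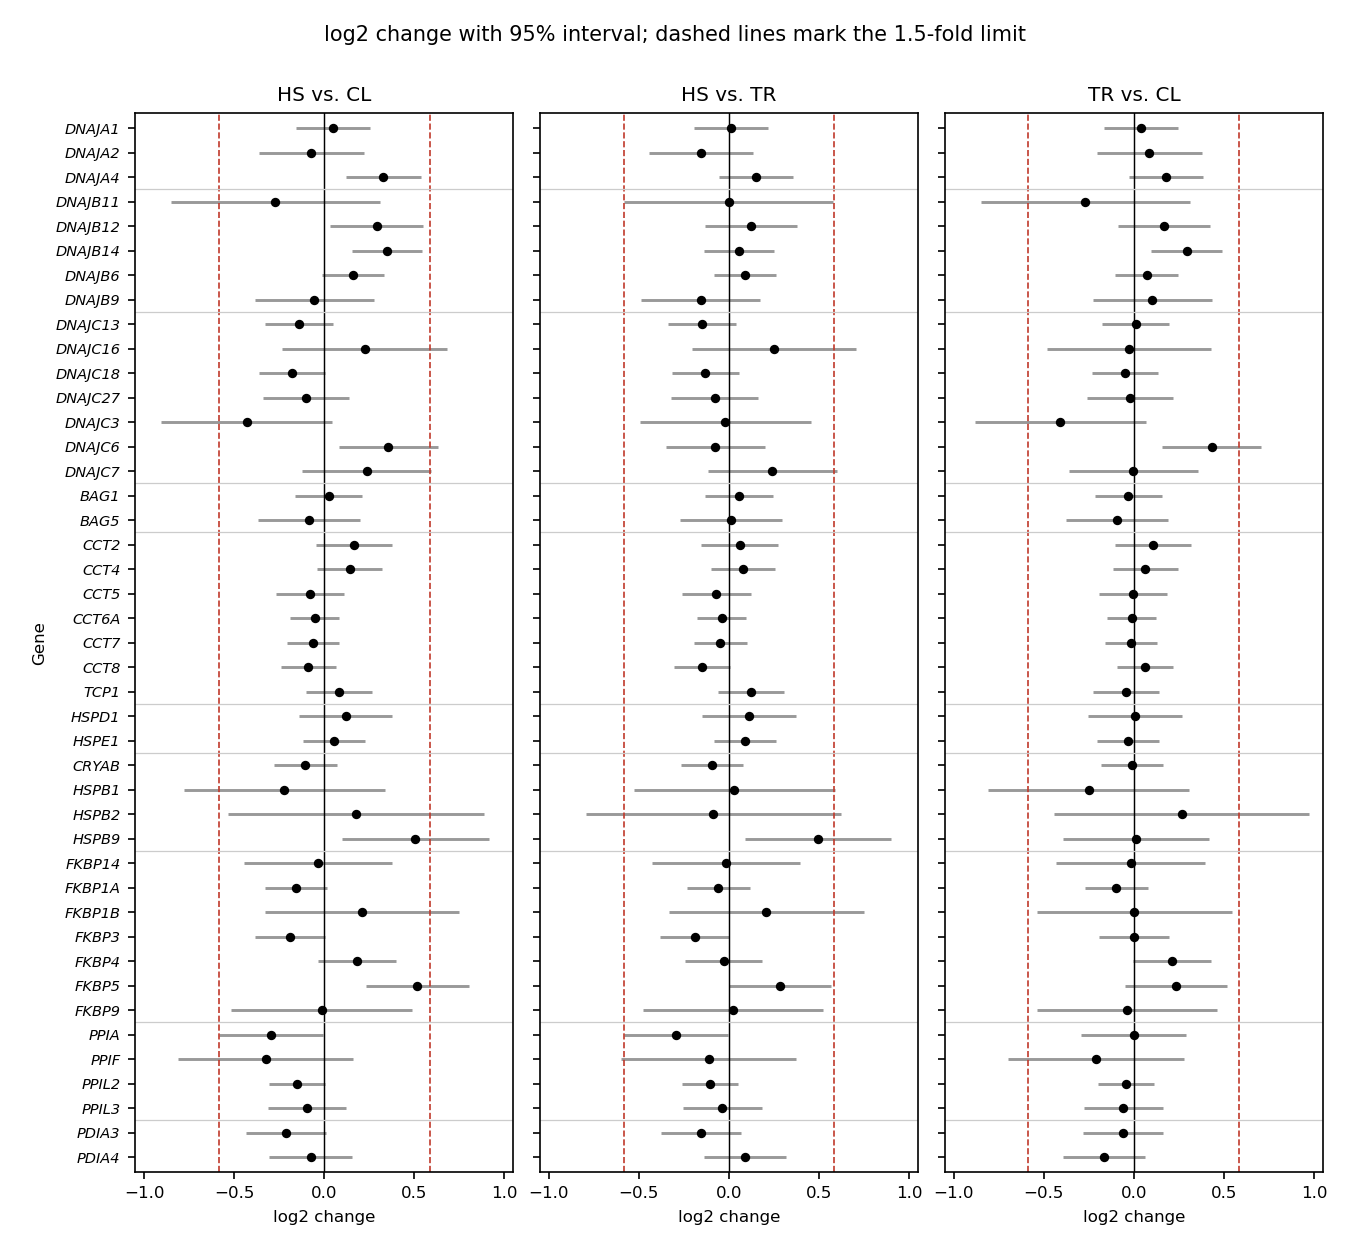
Log2 change (points) with its 95% interval (lines) of the 43 tested members by role, 1 panel per comparison, and the 1.5-fold limits as broken lines. All point estimates lie between the limits, and 31 intervals for HS against CL, 36 for HS against TR and 37 for TR against CL stay within them.

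Among the J-domain proteins of the DNAJA class, close relatives of the bacterial DnaJ that serve HSP70 in the cytosol, DNAJA4 was the only one with a low p. Its log2 signal was 12.80, 12.66, 12.80 and 12.74 in the HS birds, 12.80, 12.59, 12.50 and 12.52 in the TR birds and 12.24, 12.51, 12.38 and 12.55 in the CL birds. Every HS bird was above every CL bird, and TR lay across the gap. HS exceeded CL by 0.33 ± 0.09 (SE, n = 4 each; limma adjusted p = 0.0920). The other 3 probes of DNAJA4 had the same sign, all 4 spanning 0.26 to 0.43. DNAJA1 and DNAJA2, the other members of this class, had HS vs. CL changes of 0.05 and -0.07. Of the 9 probes of the class, 8 were above 0 for HS against CL (43.6% of all probes) and 9 for TR against CL (49%), none DE, and probes of 1 gene are not independent.

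By brightest probes, such a complete separation of the 2 groups was found for 5 of 43 members between HS and CL (11.9% of all probes), for 1 between HS and TR (11.3%) and for 4 between TR and CL (5.27%). Complete separation fixes the exact two-sided permutation p at 0.0286, the smallest that 4 against 4 arrays allow, so that p adds nothing for these members. Between HS and CL, DNAJA4, DNAJB12, DNAJB14 and FKBP5 were higher in HS (4.62% of all probes) and PPIL2 was lower (7.25%). Between HS and TR, CCT8 was lower in HS (6.66%). Between TR and CL, DNAJB14, DNAJC6 and FKBP4 were higher in TR (2.44%) and FKBP1A was lower (2.83%).

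In the DNAJB class, DNAJB12 and DNAJB14 are paired J-domain proteins anchored in the ER membrane with the J domain in the cytosol, where they take part in the disposal of misfolded membrane proteins. DNAJB14 read 14.68, 14.44, 14.56 and 14.26 in HS, 14.45, 14.47, 14.39 and 14.40 in TR and 14.19, 14.12, 14.13 and 14.11 in CL. All 8 HS and TR birds stood above all 4 CL birds. HS exceeded CL by 0.35 ± 0.09 (adjusted p = 0.0698) and TR exceeded CL by 0.29 ± 0.09 (adjusted p = 0.474), with 0.06 between HS and TR. The other probes of DNAJB14 gave 0.06 to 0.17 in HS vs. CL, of the same sign but smaller. In TR vs. CL 3 of its 4 probes were above 0, all 4 spanning -0.21 to 0.31. In HS vs. TR 2 of the 4 were above 0.

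DNAJB12 read 14.03, 14.09, 14.11 and 14.09 in HS, 14.09, 14.08, 14.06 and 13.60 in TR and 13.65, 13.96, 13.70 and 13.85 in CL. HS was higher than CL in every bird, by 0.29 ± 0.12 (adjusted p = 0.190). Its 3 probes gave 0.29 to 0.37, each with an unadjusted p under 0.05. TR4 stood far below the other TR birds. DNAJB6, which keeps aggregation-prone proteins soluble, was at 0.16 for HS against CL, 0.09 for HS against TR and 0.07 for TR against CL. Of the ER-lumen co-chaperones of BiP, DNAJB9 was at -0.06, -0.16 and 0.10 in the same order and DNAJB11 at -0.27 in both comparisons with CL, above background on 11 of 12 arrays.

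**Figure D3:**
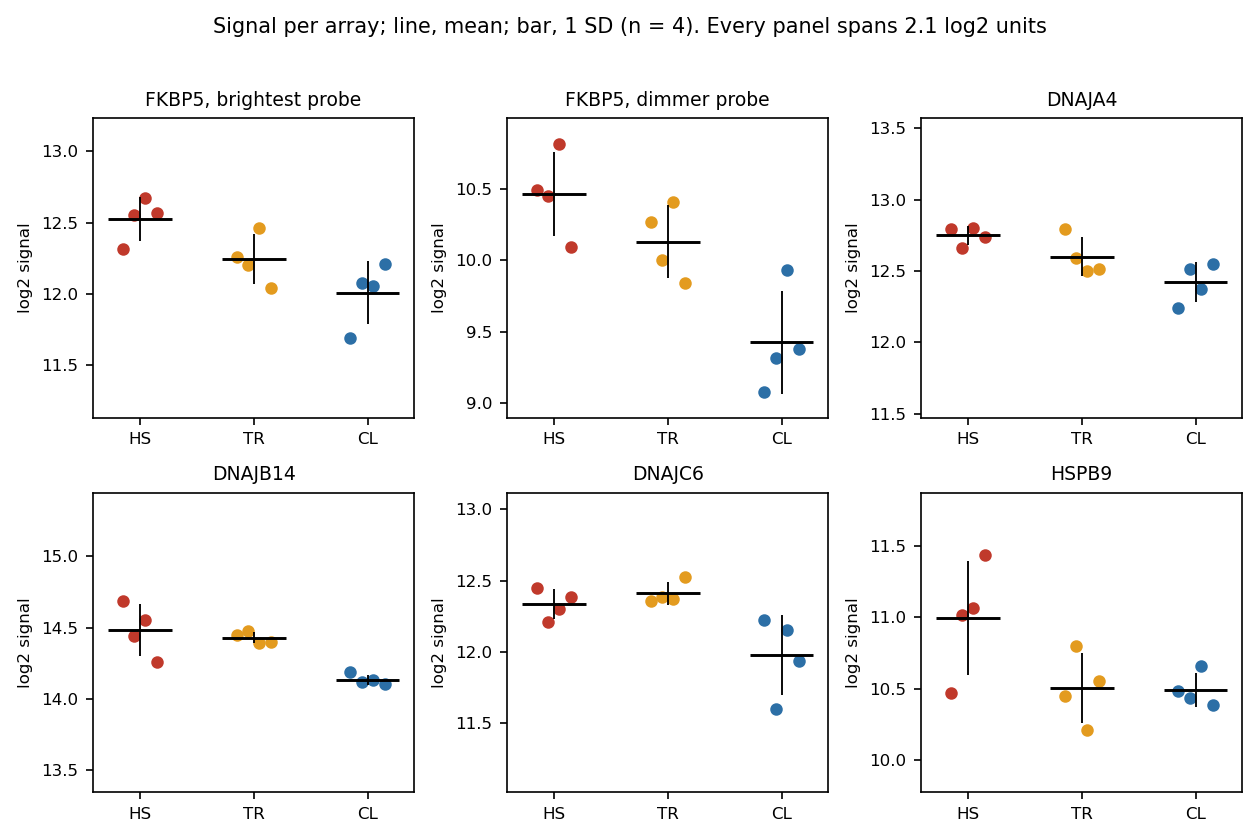
Log2 signal in each bird (points) with the group mean (line) and standard deviation (bar) for selected members, HS left, then TR, then CL. Panels show the brightest probe, and for FKBP5 also the dimmer probe. DNAJA4, DNAJB14 and FKBP5 separate HS from CL without overlap, whereas DNAJC6 and HSPB9 overlap.

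The DNAJC class holds J-domain proteins with specialised posts. DNAJC6 is auxilin, which recruits HSP70 to strip clathrin from synaptic vesicles in neurons. Its log2 signal was 12.45, 12.21, 12.30 and 12.38 in HS, 12.36, 12.39, 12.37 and 12.53 in TR and 12.22, 11.60, 12.15 and 11.94 in CL. The TR birds were all above the CL birds, and the HS birds overlapped CL narrowly, through 12.21 in HS against 12.22 in CL. TR exceeded CL by 0.43 ± 0.13 (adjusted p = 0.451) and HS exceeded CL by 0.36 ± 0.13 (adjusted p = 0.148, exact permutation p = 0.0571). The other 2 probes of DNAJC6 had the opposite sign for HS against CL, at -0.10 and -0.08. For TR against CL they had the same sign but smaller values, at 0.04 and 0.08.

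DNAJC3 (p58IPK), an ER protein that aids BiP and restrains eIF2α kinases, had the lowest estimate of any member for HS against CL. It read 13.51, 13.70, 13.85 and 13.86 in HS, 14.24, 13.53, 13.71 and 13.52 in TR and 13.87, 13.86, 14.78 and 14.14 in CL. Its CL birds reached higher than the HS birds but met them at 13.86, and the spread within CL was wide. The difference from CL was -0.43 ± 0.22 in HS (adjusted p = 0.285) and -0.41 ± 0.22 in TR (adjusted p = 0.680), and its other probes gave -0.22, -0.21 and 0.14 in HS vs. CL. At the second brightest DNAJC3 probe every HS bird (13.45 to 13.76) was below every CL bird (13.82 to 13.88), as for 7.25% of all probes. In HS vs. CL 1 dimmer DNAJC3 probe had an unadjusted limma p under 0.05, and none had an FDR under 0.15.

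DNAJC13 (RME-8), which works with HSP70 on endosomes, had 3 probes, none DE. The brightest read 12.53, 12.62, 12.38 and 12.45 in HS, 12.51, 12.80, 12.72 and 12.56 in TR and 12.66, 12.66, 12.59 and 12.63 in CL. HS overlapped both other groups. The change was -0.14 in HS vs. CL, with a 95% interval of -0.33 to 0.05 (adjusted p = 0.377), -0.15 against TR (-0.34 to 0.04, adjusted p = 0.409) and 0.01 between TR and CL (-0.18 to 0.20). The other 2 probes gave 0.00 and 0.09 in HS vs. CL. The study reported DNAJC13 as significantly higher in HS than in CL and TR, by array and by qRT-PCR of the same samples. The values here do not show that rise, and the reason for the difference was not tested.

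At their brightest probes, the other 4 DNAJC members did not reach a p under 0.05 in any comparison. DNAJC7, which binds both HSP70 and HSP90, had changes of 0.24 for HS against either group, and DNAJC16 of 0.22 against CL and 0.25 against TR. The 4 DNAJC7 probes spanned -0.24 to 0.24 against TR, 2 above 0, and -0.09 to 0.24 against CL, 3 above 0. The second DNAJC16 probe was at 0.05 for HS against CL and -0.23 for HS against TR. For TR against CL it was at 0.28, with an unadjusted limma p under 0.05. DNAJC18 and DNAJC27 were at -0.18 and -0.10 in HS vs. CL. Of the 19 DNAJC probes, 4 were above 0 for HS against TR (42.4% of all probes), 9 for HS against CL (43.6%) and 10 for TR against CL (49%).

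Of the BAG exchange factors, BAG1 read 10.22 to 10.44 in HS, 10.20 to 10.32 in TR and 10.16 to 10.47 in CL, and BAG5 read 10.35 to 10.71, 10.36 to 10.63 and 10.38 to 10.95 in those groups. At these brightest probes the changes lay between -0.10 and 0.06 over the 3 comparisons, and all intervals were inside 1.5-fold. Their dimmer probes gave larger values, 0.36 for BAG5 between HS and TR with no overlap (limma adjusted p = 0.338) and 0.29 for BAG1 between TR and CL (adjusted p = 0.620). The BAG5 value was carried largely by the first HS bird, at 7.33 against 6.44 to 6.45 in the other HS birds.

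At the brightest probes, the changes of the cytosolic chaperonin TRiC were closely bounded. All 7 subunits measured (TCP1, CCT2, CCT4, CCT5, CCT6A, CCT7 and CCT8) kept their 95% intervals inside 1.5-fold in all 3 comparisons. The outermost bounds were -0.27 and 0.38 between HS and CL, -0.30 and 0.31 between HS and TR and -0.23 and 0.32 between TR and CL. In HS vs. CL the subunits did not share a direction. CCT2 (0.17), CCT4 (0.14) and TCP1 (0.08) were above 0, and CCT5 (-0.08), CCT6A (-0.05), CCT7 (-0.06) and CCT8 (-0.09) below it. The second CCT7 probe gave -0.21 against CL and -0.20 against TR, with an unadjusted limma p under 0.05 in both. At that probe every HS bird was below every CL and TR bird, and the FDR against CL was under 0.15.

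CCT8 was the only member whose HS and TR birds did not overlap at the brightest probe. It read 14.14, 14.08, 14.16 and 14.21 in HS, 14.39, 14.25, 14.30 and 14.25 in TR and 14.26, 14.29, 14.27 and 14.12 in CL. HS was lower than TR by a small margin, -0.15 ± 0.07 (adjusted p = 0.319), and overlapped CL through the fourth CL bird. Its other 2 probes gave -0.0074 and -0.04 against TR. Dimmer probes of BAG5, CCT7, DNAJA1, DNAJA4, DNAJC13, PDIA3 and PPIA also separated HS and TR, none with an FDR under 0.15. Such a separation was found for 11.3% of all probes.

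The mitochondrial chaperonin consists of the HSPD1 barrel and its HSPE1 lid, which lie next to each other on chromosome 7 of the GRCg7b assembly. HSPD1 read 13.84, 13.62, 13.96 and 14.16 in HS, 13.97, 13.69, 13.62 and 13.86 in TR and 13.68, 13.79, 13.78 and 13.85 in CL. HSPE1 read 15.06, 15.02, 15.11 and 15.27 in HS, 14.93, 15.02, 15.03 and 15.12 in TR and 15.02, 14.99, 15.11 and 15.11 in CL. For both genes all 3 groups overlapped, with the fourth HS bird highest. HS exceeded CL by 0.12 (95% interval -0.14 to 0.38) for HSPD1 and by 0.05 (-0.12 to 0.23) for HSPE1. All 7 probes of the pair were above 0 in HS vs. CL (43.6% of all probes), between 0.0026 and 0.12, and none had a p under 0.05.

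**Figure D4:**
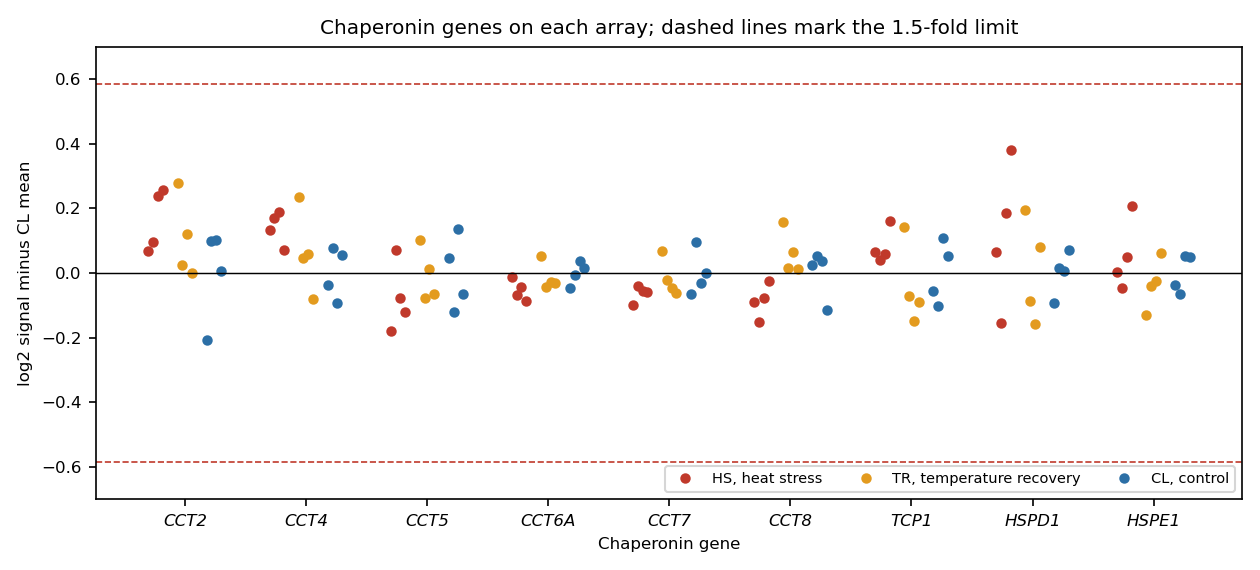
Log2 signal minus the gene's CL mean, per bird (points), for the 7 TRiC subunits, HSPD1 and HSPE1, HS left, then TR, then CL. The group means stay within 0.17 of the CL mean for every gene.

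Of the small heat shock proteins, HSPB1 and HSPB2 varied widely between birds. HSPB1 (the HSP27 family member that guards actin filaments) read 12.95, 12.46, 13.34 and 13.23 in HS, 13.23, 12.60, 12.98 and 13.03 in TR and 13.23, 13.59, 12.52 and 13.52 in CL. HSPB2, known from mammalian heart and skeletal muscle, read 8.64, 8.71, 8.33 and 9.55 in HS, 8.93, 8.59, 9.61 and 8.44 in TR and 8.28, 9.29, 8.37 and 8.57 in CL. For both genes all groups overlapped, and each HSPB2 group had 1 bird well above the rest. With HS vs. CL changes of -0.22 ± 0.25 and 0.18 ± 0.32 their intervals reached past 1.5-fold. The HS2 and CL2 birds, highest in striated muscle markers, read 8.71 and 9.29 for HSPB2, and the part of muscle RNA in that was not tested.

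CRYAB (αB-crystallin), the neighbour of HSPB2 on chromosome 24 of GRCg7b, had a narrower range. It spanned 17.29 to 17.55 in HS, 17.42 to 17.67 in TR and 17.50 to 17.55 in CL. HS differed from CL by -0.10 and from TR by -0.09, and TR from CL by -0.0097, with all intervals inside 1.5-fold. With 75th percentile scaling the difference from CL was -0.33 (adjusted p = 0.0993), and the second CRYAB probe gave -0.25 for HS against TR (adjusted p = 0.287).

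HSPB9, a small heat shock protein that mammals express mainly in testis, was the member with the largest difference between HS and TR. It read 10.47, 11.01, 11.07 and 11.44 in HS, 10.45, 10.80, 10.21 and 10.55 in TR and 10.48, 10.44, 10.66 and 10.38 in CL. Of the HS birds, 3 stood above every TR and CL bird, and the first HS bird was level with them. HS exceeded CL by 0.51 ± 0.19 (adjusted p = 0.159, exact permutation p = 0.0857) and TR by 0.49 ± 0.19 (adjusted p = 0.224), whereas TR and CL differed by 0.01. All 3 probes of HSPB9 were higher in HS than in CL, by 0.17 to 0.51. Without the first HS bird both differences met the DE limits, at 0.68 against CL (adjusted p = 0.0522) and 0.67 against TR (adjusted p = 0.0774).

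Among the FK506-binding prolyl isomerases, FKBP5 stood highest in HS. FKBP5 (FKBP51) sits with HSP90 on steroid receptors and is a classic glucocorticoid-induced gene in mammals. Its brightest probe read 12.31, 12.55, 12.67 and 12.56 in HS, 12.26, 12.20, 12.47 and 12.04 in TR and 11.69, 12.07, 12.06 and 12.21 in CL. Every HS bird was above every CL bird, and the TR birds lay between and across them. HS exceeded CL by 0.52 ± 0.13 (95% interval 0.23 to 0.80, adjusted p = 0.0660), TR by 0.28 ± 0.13 (adjusted p = 0.307), and TR exceeded CL by 0.23 ± 0.13 (adjusted p = 0.693).

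The second, dimmer FKBP5 probe was the only one of the 100 member probes tested that was DE. It read 10.49, 10.45, 10.81 and 10.09 in HS, 10.27, 10.0001, 10.41 and 9.84 in TR and 9.08, 9.32, 9.93 and 9.38 in CL. It rose 2.05-fold in HS vs. CL, by 1.04 ± 0.20 on the log2 scale (adjusted p = 0.0346), with no overlap. TR exceeded CL by 0.70 ± 0.20 (limma adjusted p = 0.451) and HS exceeded TR by 0.33 (adjusted p = 0.439). Both probes thus placed the 3 groups in the order HS, TR, CL, with neighbouring groups overlapping, and differed in the size of the step.

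**Figure D5:**
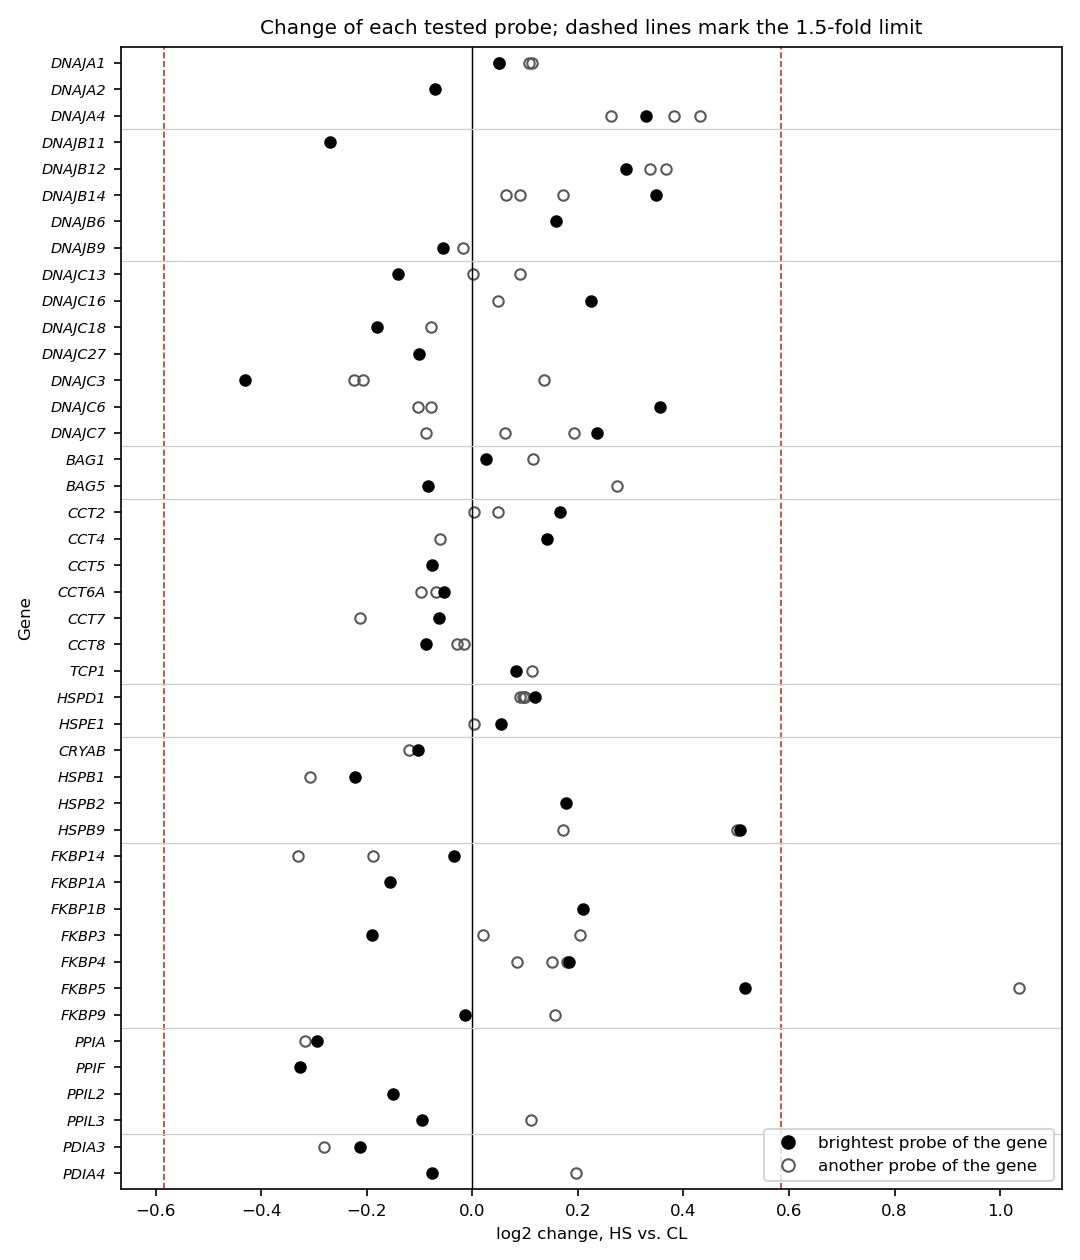
Log2 change in HS vs. CL of every tested probe of the 43 tested members, the brightest probe of each marked. The dimmer FKBP5 probe (1.04) is the only one past the DE limits, and all probes share a sign in 23 of the 33 genes with several probes.

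The FKBP5 partner FKBP4 (FKBP52), which competes with it for the HSP90 complex, had its largest change in TR vs. CL. It read 13.22, 13.33, 13.47 and 13.59 in HS, 13.63, 13.33, 13.37 and 13.39 in TR and 13.23, 13.18, 13.29 and 13.18 in CL. TR exceeded CL in every bird, by 0.21 ± 0.10 (adjusted p = 0.645), and HS overlapped both. The 4 FKBP4 probes spanned 0.0078 to 0.22 in TR vs. CL. FKBP1A (FKBP12), which binds the ryanodine receptor, read 14.67, 14.49, 14.68 and 14.83 in HS, 14.66, 14.75, 14.76 and 14.72 in TR and 14.85, 14.84, 14.78 and 14.81 in CL. All TR birds were below the CL birds, but only by 0.10 ± 0.08 on average (adjusted p = 0.792). HS differed from CL more, by -0.16 (adjusted p = 0.290), with overlap.

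The other FKBP members had no p under 0.05. FKBP1B (FKBP12.6), also a ryanodine receptor partner, was at 0.21 in HS vs. CL, carried by 1 HS bird at 12.55 against 11.15, 11.53 and 11.72 in the others. FKBP3, a nuclear isomerase, was at -0.19, with 0.02 and 0.20 at its other probes, so its sign depended on the probe. The ER isomerase FKBP9 was at -0.01, with 0.16 at its second probe, and FKBP14, also in the ER, was at -0.04, with -0.19 and -0.33 at its other probes.

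None of the 4 cyclophilins tested was above 0 at its brightest probe for HS against CL (43.6% of all probes), HS against TR (42.4%) or TR against CL (49%), the last being the difference of the other two. PPIA was at -0.00066 for TR against CL, and a second PPIL3 probe was above 0 in both comparisons with CL, at 0.11 in HS and 0.25 in TR. PPIA (cyclophilin A), the abundant cytosolic form, read 16.37, 15.95, 16.12 and 16.47 in HS, 16.40, 16.42, 16.53 and 16.74 in TR and 16.46, 16.49, 16.38 and 16.76 in CL. The HS birds ran lower but overlapped both other groups. The difference was -0.29 ± 0.13 against CL (adjusted p = 0.236) and -0.29 ± 0.13 against TR (adjusted p = 0.299), and its second probe gave -0.32 against CL.

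PPIF (cyclophilin D), part of the mitochondrial permeability transition, read 12.79, 13.25, 13.10 and 12.51 in HS, 12.80, 13.27, 12.58 and 13.46 in TR and 13.28, 12.88, 13.54 and 13.25 in CL, with wide overlap (-0.33 ± 0.22 in HS vs. CL, adjusted p = 0.432). PPIL2, a nuclear cyclophilin, read 11.59, 11.62, 11.49 and 11.57 in HS, 11.71, 11.61, 11.59 and 11.79 in TR and 11.79, 11.66, 11.73 and 11.70 in CL. Every HS bird was below every CL bird, by 0.15 on average (limma adjusted p = 0.258). PPIL3 was at -0.10 in HS vs. CL. PPID, an HSP90 partner, was not tested, since it was above background on no HS array, 2 TR arrays and 2 CL arrays.

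The disulfide isomerases were represented by PDIA3 (ERp57) and PDIA4 (ERp72), which fold glycoproteins and secreted proteins in the ER. PDIA3 read 12.72, 12.31, 12.54 and 12.56 in HS, 12.84, 12.75, 12.51 and 12.64 in TR and 12.67, 12.70, 12.79 and 12.82 in CL. At this probe HS overlapped both groups, and the change was -0.21 in HS vs. CL (95% interval -0.43 to 0.01). The second PDIA3 probe gave -0.28 against CL and -0.22 against TR, with an unadjusted limma p under 0.05 in both. There every HS bird was below every CL and TR bird, and the FDR against CL was under 0.15. PDIA4 was at -0.08, with an interval of -0.30 to 0.15, and its second probe had the opposite sign, at 0.20.

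Agreement between probes was partial. Of 33 members with several tested probes, all probes shared a sign in 23 for HS against CL, 19 for HS against TR and 16 for TR against CL. Of all 100 member probes, 17, 8 and 7 had a p under 0.05 in that order, against 20.6%, 16.4% and 7.77% of all probes.

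Core chaperones that these genes serve were listed apart, together with heat shock factors and genes of ER stress and protein degradation, 61 in all. Of these, 26 had a named probe, HSP90AB1, HSPA4 and HYOU1 not among them, and 25 were tested. None was DE in any comparison. An unadjusted p under 0.05 was reached by 2 of the 25 for HS against CL (20.6% of all probes), 1 for HS against TR (16.4%) and 0 for TR against CL (7.77%). HSPH1 (HSP110), an HSP70 exchange factor, was at 0.34 in HS vs. CL (adjusted p = 0.219). STUB1 (CHIP), the ubiquitin ligase that marks chaperone clients for degradation, was at -0.32 against CL (adjusted p = 0.0620) and -0.33 against TR (adjusted p = 0.0908) in HS, with no overlap between birds in either, and both comparisons used the same HS birds. EIF2AK3 was also lower in HS without overlap in both, at -0.17 and -0.15, and HSF2 against TR, at -0.20. Of all probes 7.25% were lower without overlap against CL and 6.66% against TR. The ER chaperones HSPA5 (BiP) and HSP90B1 (GRP94), the first of them the partner of DNAJC3, DNAJB9 and DNAJB11, were at -0.30 and -0.31 in HS vs. CL, and the cytosolic HSPA8 and HSP90AA1 at 0.19 and 0.07 (HSP90AA1 with 3 CL birds, since 1 spot was marked an outlier), none with a p under 0.05.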

How the data were processed

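RNA of 12 hypothalami was hybridised to one-colour Agilent chicken arrays. The deposited spot intensity came from Feature Extraction 10.7.3.1, per the file headers, and the authors also deposited a log2 table that they had quantile-normalized. Its 43606 entries were matched to probes by how close their signals were to the signals normalized here. By this, 65.6% matched the probe of their own number and 99.95% a probe within 12 positions, and all 101 member probes were matched. The table served as an alternative, but the matching required close signals, so its agreement with the main fit was built in.

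Log2 processed intensities were quantile-normalized over the non-control spots, outlier-marked spots were left out (420 probe values) and spots of a probe were averaged, which gave 43603 probes. A gene name came from the RefSeq accession of a probe (10185 probes), with symbols of GRCg7b, and a gene was represented by its brightest probe. Tested were the 34929 probes whose spots cleared background in every bird of 1 or more groups. One model over the 12 arrays was fitted with limma 3.58.1 in R 4.3.3 (lmFit, eBayes, Benjamini-Hochberg over all probes). DE followed the limits in the study's methods text, p under 0.05, FDR under 0.15 and fold change over 1.5; elsewhere the study gives an FDR under 0.05, which was run as an alternative. Values in the text are normalized log2 signals, a change is a difference of group means with its standard error, and signals of different probes are not comparable. For single genes an exact permutation test ran over the 70 assignments of 8 arrays. The script was tested on simulated data. Birds are the replicates, and the number of arrays limits the precision.

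Alternatives covered scaling, background correction, filters, limits, covariates, array weights, the deposited table, the methods' t-test, the mean of a gene's probes and each array left out.

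The members and lists were chosen with earlier results of these data known. Named in full were members DE in any comparison, the 8 largest changes per comparison, those with a p under 0.01, DNAJC13, and complete families (TRiC, HSPD1, HSPE1, small heat shock proteins, PDIA), 29 genes in all. Another 5 (DNAJB12, DNAJC18, FKBP1A, FKBP4 and PPIL2) were singled out after their values were seen, and the remaining members are given to complete each role. Neighbouring genes were read from GRCg7b, and no sequence or position is given.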

Additional observations from a re-analysis of the deposited data

Results flagged for a closer look

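Within the 132 groups of 4 birds examined (44 members, 3 groups), 5 held a bird whose distance to its nearest neighbour took up more of the group's range than Dixon's critical value at the 95% level allows. Chance alone gives about 1 group in 20.

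In TR, DNAJB12 was 13.5989 in TR4 against 14.059 to 14.0852 in the other TR birds, and DNAJC6 was 12.5282 in TR4 against 12.358 to 12.3857. In HS, DNAJC18 was 12.1886 in HS1 against 12.0417 to 12.0558 in the other HS birds. In CL, DNAJC16 was 11.8032 in CL2 against 11.0114 to 11.1138 in the other CL birds, and CCT8 was 14.119 in CL4 against 14.2599 to 14.2868.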

How the results depend on the processing

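Each group filled a slide of its own, so a fit with slide or scan day as a block could not be made, and the number of birds limits what can be detected. Of 2829 alternative values of 34 named members, 2716 kept direction and DE status. Another 104 changed sign while not DE, 9 became DE and 0 were lost or reversed. Only the dimmer FKBP5 probe (HS vs. CL), DE in the main fit, could be lost. It stayed DE in every single-probe alternative, at 0.92 to 1.20 (adjusted p 0.0271 to 0.109) with 1 array left out.

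For HS vs. CL, members DE numbered 1 with no filter on dim probes (PPID, probes 2), 1 with the mean of all probes of a gene (FKBP5, 0.78, adjusted p = 0.0333), and 4 with no fold limit (DNAJA4, DNAJB14, DNAJC6 and FKBP5, with 8 probes). With that mean DNAJB14 was at 0.17 (adjusted p = 0.459) and DNAJC6 at 0.06 (adjusted p = 0.763), more than 1.5 times smaller. With 1 array left out members DE ranged over 0 to 2 for HS against CL, 0 to 1 for HS against TR and 0 to 0 for TR against CL, and member probes DE over 1 to 4, 0 to 2 and 0 to 0. The upper values came without HS1, where FKBP5 (0.59, adjusted p = 0.0564) and HSPB9 were DE against CL and HSPB9 against TR. Without HS3 the adjusted p of FKBP5 (0.175) and of DNAJB14 (0.181) passed 0.15. That of DNAJA4 passed it without HS3, HS4, CL1 or CL3 (up to 0.217), and that of DNAJC6 passed it (up to 0.264) without any 1 array other than HS2 or CL1. Without both HS2 and CL2 it passed 0.15 for FKBP5, DNAJB14 and DNAJC6. With no FDR limit 1 member probe (FKBP5, 0.70) was DE in TR vs. CL.

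The median change of the members, HS against CL, was -0.0095 with array weights and 0.0284 with the mean of all probes, and -0.0639 to 0.0241 with 1 array left out (highest without CL4). For HS against TR it was -0.0502 to 0.0378 (highest without TR1; 0.0370 without HS2) and 0.0370 without HS2 and CL2, and for TR against CL -0.0127 to 0.0089. Leaving out HS2 and CL2 and dropping the fold limit were chosen after seeing the data. With 75th percentile scaling members with a p under 0.05 for HS against CL numbered 5 higher and 6 lower, against 6 and 1, with normexp 8 and 3, with array weights 7 and 5, without CL2 7 and 4, and without HS2 and CL2 5 and 6. For HS against TR they numbered 5 with 75th percentile scaling, array weights or without TR1, 4 with normexp, the replicate block or without CL4, and 1 to 3 otherwise, against 2. Shares of all probes with such a p were not counted for these alternatives. At an FDR under 0.05 no member was DE, and the dimmer FKBP5 probe was DE for HS against CL.

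Counts of DE probes over the whole table, 1246 for HS against CL, 647 for HS against TR and 33 for TR against CL, were 666, 306 and 19 with normexp background correction, 337, 158 and 0 at an FDR under 0.05, 1430 for HS against TR and 483 for TR against CL with no FDR limit, 10 in TR vs. CL with only the 2 groups compared, and 410, 256 and 1 with the methods' t-test. They were 1109 in HS vs. TR with array weights, 57 in TR vs. CL with 75th percentile scaling, and, without HS2 and CL2, 748 for HS against CL and 16 for TR against CL. With no fold limit they were 3860, 1614 and 53, and with 1 array left out they ranged over 490 to 1855, 254 to 1195 and 0 to 42.

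Deviations of same-numbered birds from their group means correlated at r -0.15 to 0.37. Among CL birds HS2 was closest to CL2 (0.37), and among TR birds HS4 was closest to TR4 (0.17). Matches were sought for HS birds among CL and TR birds and for TR birds among CL birds. No other of these matches was to the bird of the same number. With the replicate block the members DE stayed 0, 0 and 0, member probes DE 1, 0 and 0, the medians -0.0527, -0.0169 and -0.0071, and the whole-table counts were 1243, 521 and 20.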
